A study of Mus musculus with 12 samples.

Results

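Hippocampal transcriptomes of 3 *Dek* cKO mice were compared with those of 3 WT mice whose library names begin with C57, 6 of the 12 libraries in the series. The WT libraries are WT female replicates 1, 2 and 3. The *Dek* cKO libraries are cKO female replicates 1 and 2 and a library labelled cKO male replicate 1, which a supplementary plot of the study colours with the female cKO mice. Library names of all 3 cKO mice, and of the 6 mice outside the comparison, begin with CMV. Genotype and name prefix therefore cannot be told apart within the 6 libraries.

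Cohorts of WT and *Dek* cKO mice were tested for learning and memory, and bulk RNA sequencing of dissected hippocampus followed in some of them. The *Dek* cKO mice descend from floxed *Dek* mice crossed to CMV-Cre mice, and the methods give a C57Bl/6 background for the Cre line. The CMV promoter drives Cre in all tissues, and Cre was bred out afterwards, so the deletion is constitutive and present in every cell type from the start of development. WT and cKO mice of this line come from matings of heterozygous parents according to the methods, which describe adult mice, and the labels give neither the age nor the strain of a single mouse. The 6 libraries outside the comparison, used below as a second set, are WT male replicates 1, 2 and 3 and the libraries labelled cKO female replicate 3 and cKO male replicates 2 and 3.

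DEK is an abundant nuclear protein that binds DNA and histones, favours condensed chromatin and acts as a chaperone of the histone variant H3.3. It also takes part in DNA replication, DNA repair and RNA splicing. The hippocampus is the region of the forebrain needed for spatial and episodic memory, with principal neurons in the dentate gyrus and the CA fields, and it borders on cortex, thalamus and the choroid plexus of the lateral ventricle. RNA from dissected tissue is a mixture of all these cells, so fewer cells of a type and less RNA per cell cannot be told apart.

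The deleted part of *Dek* is shown first because it defines the cKO genotype. *Dek* (ENSMUSG00000021377) lies on the minus strand of chromosome 13 of GRCm38, from 47084775 to 47106201, and its transcript model has 11 exons. Exon 3 (chr13:47101973-47102074, 102 bases, lower case) and exon 4 (chr13:47101623-47101732, 110 bases, capitals) are coding throughout. Together they hold 212 bases, a number that leaves a remainder of 2 when divided by 3. The GENCODE M21 transcript sequence, 5′ to 3′ on the coding strand, is as follows.
Dek exons 3 and 4: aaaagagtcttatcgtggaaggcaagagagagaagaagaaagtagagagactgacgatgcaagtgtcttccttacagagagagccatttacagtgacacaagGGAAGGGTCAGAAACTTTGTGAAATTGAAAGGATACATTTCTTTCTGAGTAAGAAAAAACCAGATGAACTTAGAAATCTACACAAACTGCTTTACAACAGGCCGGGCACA

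Of the 4 genes that rose by the strictest threshold used below, *Trbj2-3* and *Gm17387* have very short models, which are printed because TPM divides reads by model length, so that a given number of reads weighs more in a short model. *Trbj2-3*, a joining segment of the T cell receptor beta chain, spans 49 bases on the plus strand (chr6:41543223-41543271). *Gm17387* lies on the plus strand (chr7:141029131-141029620) and has exons of 37 bases (lower case) and 35 bases (capitals), 72 in all.
Trbj2-3: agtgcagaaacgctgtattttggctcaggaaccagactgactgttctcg
Gm17387: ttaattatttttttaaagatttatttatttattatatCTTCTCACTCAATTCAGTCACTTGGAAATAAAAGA

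The deposited values are TPM, a unit that scales reads by transcript length and by the total of a library. The libraries sum to between 825750 and 835988 TPM over the 26409 listed genes, and between 13970 and 14235 genes reached 1 TPM. Reads per gene are not kept in this unit, so depth per gene is unknown and no counting interval is given. Hippocampal markers were detected in all 6 libraries. In the dentate gyrus list they ran from 1.30 to 2.17 TPM of *Prox1*, a transcription factor of granule cells, to 47.2 to 84.7 TPM of *C1ql2*, and in the CA1 list *Mpped1* had 130.4 to 156.4 TPM. *Tyrobp*, a microglial adaptor, is listed at 0 in all 6, although *C1qa*, a complement gene of microglia, had 74.4 to 82.9 TPM. Summed TPM of 4 Y-linked genes was 0.613 to 1.77 in the WT libraries and 0.642 to 1.10 in the cKO libraries. The lowest cKO sum of these was in the library labelled cKO male replicate 1. Among the 6 other libraries the sum was 96.3 to 125.5 TPM, including 107.6 TPM in the library labelled cKO female replicate 3. These levels go against the sex on the labels of the last 2 libraries named. By them the sets differ in sex throughout, so that a difference between the sets and one between the sexes cannot be told apart.

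WT female replicate 1 stood apart from the other libraries before any comparison of genotypes. A total of 62 processed pseudogenes, the intronless copies of other transcripts, reached 5 TPM in this library while all 11 other libraries stayed at or under 1 TPM. In each of the other libraries there were 0 to 2 such pseudogenes. *Gm14892* had 96.2 TPM in it and at most 0.724 TPM elsewhere, *Gm17511* had 63.8 TPM, and *Rpl12-ps2* had 44.6 TPM and is listed at 0 in every other library. Processed pseudogenes at 1 TPM or more numbered 554 in WT female replicate 1 and 350 to 402 elsewhere, as the bar plot of pseudogenes by library shows. Their summed level was 9626 TPM, against 6113 to 6568 TPM in the other 5 libraries of the comparison.

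**Figure D1:**
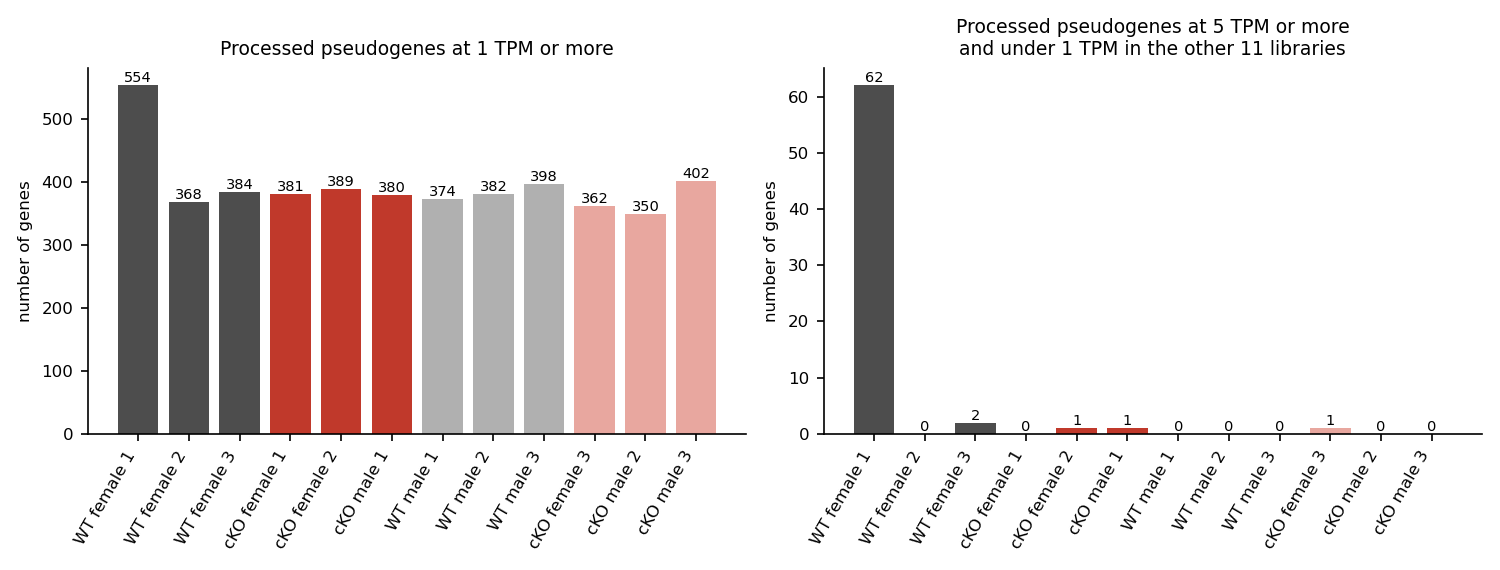
Processed pseudogenes in each of the 12 libraries: the number that reached 5 TPM in that library alone, and the number at 1 TPM or more. WT female replicate 1 holds 62 of the first kind and 554 of the second, and the other libraries hold 0 to 2 and 350 to 402.

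Protein-coding genes with at least 1 TPM in WT female replicate 1 and at least 4 times the level of the highest other library numbered 15, and those named here were chosen after their values were seen. *Lin28a*, an RNA-binding protein of embryonic stem cells, had 8.29 TPM and at most 0.0232 TPM in any other library. *Pou5f1*, the pluripotency factor also called Oct4, had 4.28 TPM, *Sall4* 3.15 TPM and the de novo DNA methyltransferase *Dnmt3b* 5.61 TPM, against at most 1.29 TPM of *Dnmt3b* elsewhere. *Sfrp2*, a secreted Wnt antagonist, had 21.95 TPM and at most 2.19 TPM elsewhere, and the mitotic gene *Cdc20* had 5.02 TPM. Log2 values of WT female replicate 1 correlated with those of the other WT libraries at 0.9437 and 0.9442 across genes, below the 0.9596 to 0.9758 of the other pairs within a genotype. Over protein-coding genes alone the values were 0.9789 and 0.9796, within the 0.9672 to 0.9831 of the other pairs, and the lowest were those of cKO female replicate 1 (0.9672 and 0.9715).

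*Dek* itself separated the genotypes. WT female replicates 1, 2 and 3 had 49.5, 44.2 and 47.0 TPM. The cKO female replicates 1 and 2 had 6.52 and 9.25 TPM, and the library labelled cKO male replicate 1 had 7.47 TPM. Every cKO value was thus far below every WT value, and the library of conflicting sex carried the level of its labelled genotype. *Dek* fell by 2.60 on the log2 scale (standard error, SE, 0.13, 95% interval -2.89 to -2.30, limma adjusted p = 0.00127), and by 2.56 without WT female replicate 1 (adjusted p = 0.0132). The second set had 48.7 to 51.9 TPM in WT and 5.55 to 8.10 TPM in cKO mice, a log2 fold change of -2.89, and the difference between the sets was 0.29 (interaction adjusted p = 0.79). Within 5 Mb of *Dek*, 48 other genes were tested. Of these 1 had an unadjusted p under 0.05, 0 were on the nominal list defined below, and their median log2 fold change was 0.04.

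Testing was limited to the 14208 genes whose mean over the 6 libraries reached 1 TPM, and it used limma on the scale of log2(TPM + 0.1). On this scale the fold change of a gene near 0.1 TPM is smaller than its ratio of TPM. A call required a Benjamini-Hochberg adjusted p under 0.05 together with more than a 1.2-fold difference. A wider nominal list required an unadjusted p under 0.05 and a difference of 1.5-fold or more. Calls were made for 5 genes, or 0.0352% of those tested, of which 4 rose and 1, *Dek*, fell. Without WT female replicate 1, 7 genes were called, or 0.0495% of 14147 tested, and 4 were shared with the first fit: *Dek*, *Col7a1*, *Gm17387* and ENSMUSG00000050347. *Gm10042*, *Gm10163* and *Gm15009* were called in that fit and not in the first. Fits that left out another library called 1 gene (without cKO female replicate 2) to 11 genes (without the library labelled cKO male replicate 1), *Dek* in each. On the nominal list stood 301 genes, or 2.12%, with 238 higher (1.68%) and 63 lower (0.443%) in *Dek* cKO mice. At an unadjusted p under 0.05 alone there were 1247 genes, or 8.78%, against 6.47% without WT female replicate 1 and 5.41% in the second set. The 3 cKO values lay above the 3 WT values in 1323 genes (9.31%) and below them in 608 (4.28%). The excess of higher genes depended in part on scaling, with 191 higher and 71 lower after median ratio rescaling and 164 and 86 after quantile normalization. Without WT female replicate 1 the list held 216 higher and 77 lower genes, or 2.07%, and 191 genes were on both lists.

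Of the called genes that rose, type VII collagen was the 1 with values above 0 in both genotypes. *Col7a1* encodes the collagen of the anchoring fibrils that attach epithelia to underlying tissue. WT levels were 1.21, 1.56 and 1.66 TPM and cKO levels were 8.43, 6.79 and 7.54 TPM, in the order of libraries given for *Dek*, which is kept from here on. No cKO mouse came near the WT range. The log2 fold change was 2.29 (SE 0.18, 95% interval 1.87 to 2.71, adjusted p = 0.0124) and 2.16 without WT female replicate 1 (adjusted p = 0.0256). Without WT female replicate 2 or 3 or cKO female replicate 1 or 2 the log2 fold change was 2.21 to 2.38, and the call was lost (adjusted p = 0.0543, 0.0554, 0.0694 and 0.196). In the second set *Col7a1* had 1.03, 1.60 and 0.901 TPM in WT and 5.49, 6.38 and 6.53 TPM in cKO mice, a log2 fold change of 2.32 (limma adjusted p = 0.123). The estimates of the sets differed by -0.03 (interaction adjusted p = 0.989).

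The remaining called genes were listed at 0 in all WT libraries. They thus passed the filter of 1 TPM through their cKO values alone, and their WT values had no spread. *Gm17387* is listed at 0 in all 3 WT libraries and had 6.02, 5.18 and 6.02 TPM in the cKO libraries (adjusted p = 0.0124, and 0.0132 without WT female replicate 1). Its call was lost when any 1 of the 3 cKO libraries was left out (adjusted p = 0.114, 0.467 and 0.103 in their order). ENSMUSG00000050347, which has no entry in GENCODE M21, is likewise listed at 0 in WT and had 3.85, 3.87 and 3.90 TPM in cKO mice (adjusted p = 0.0339, and 0.0256 without WT female replicate 1), and its call was lost when any 1 of the other 5 libraries was left out (adjusted p = 0.0543 to 0.553). Both are listed at 0 in all 6 libraries of the second set, cKO mice included. *Trbj2-3* is listed at 0 in WT and had 8.97, 45.7 and 7.75 TPM in cKO mice (adjusted p = 0.0313). Its call was lost without WT female replicate 1 (adjusted p = 0.1) and without each other library (adjusted p up to 0.314) except the library labelled cKO male replicate 1 (adjusted p = 0.0469). The call was also lost with 0.5 or 1 TPM added (limma adjusted p = 0.117 and 0.177), with no filter (0.0953) and with no trend (0.0885). In the second set WT male replicate 1 had 3.71 TPM and cKO male replicate 3 had 2.02 TPM, the others being listed at 0. No fold is given for these genes. The pseudogene *Polr2k-ps*, which overlaps *Zfp652*, had 3.43, 5.07 and 1.79 TPM in cKO and is listed at 0 in the WT libraries (adjusted p = 0.113).

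A chemokine and a chemokine-binding receptor were among the nominal genes with higher values. *Ccl25* encodes a chemokine that guides T cells to thymus and gut. It had 7.37, 7.505 and 5.68 TPM in WT and 13.7, 11.9 and 14.9 TPM in cKO mice, and the log2 fold change was 0.97 (SE 0.14, adjusted p = 0.143). *Ackr1*, the chemokine-binding receptor of venular endothelium also known as Duffy antigen, had 36.0, 39.7 and 42.7 TPM in WT and 63.3, 59.7 and 57.5 TPM in cKO mice, and the log2 fold change was 0.61 (SE 0.08, adjusted p = 0.109). For both genes the 3 cKO values lay above the 3 WT values, in the second set also, where the log2 fold changes were 1.21 and 0.56. Neither passed adjustment over all genes.

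*Gm15319*, a predicted protein-coding gene on the minus strand of chromosome 8, had the smallest p among higher genes with values above 0 in both genotypes after *Col7a1*. Its WT levels were 1.81, 1.60 and 1.18 TPM and its cKO levels 5.48, 5.23 and 4.65 TPM, again without overlap. The log2 fold change was 1.70 (SE 0.20, adjusted p = 0.109), 1.82 without WT female replicate 1 (adjusted p = 0.139) and 1.77 in the second set (adjusted p = 0.0475). Among genes with an ion channel or transport role, *Clic3*, of the chloride intracellular channel family, stood at 0.70 on the log2 scale (adjusted p = 0.143) and *Tmc4*, a transmembrane channel-like gene, at 0.81. *Tmc4* had 9.47, 8.46 and 8.45 TPM in WT and 18.9, 14.5 and 13.6 TPM in cKO mice, and its adjusted p was 0.249. *Arl9*, a small GTPase of the ARF-like family, had 1.01, 0.652 and 1.07 TPM in WT and 4.70, 2.75 and 4.12 TPM in cKO mice, a log2 fold change of 1.96 (adjusted p = 0.193). Each of these 3 genes was also separated by genotype in the second set, with log2 fold changes of 0.80, 0.71 and 1.35.

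*Dpm1*, a subunit of the enzyme that makes dolichol phosphate mannose for glycosylation, differed by less but with small spread. It had 96.1, 102 and 97.9 TPM in WT and 126, 142 and 131 TPM in cKO mice, and the log2 fold change was 0.43 (SE 0.06, adjusted p = 0.134). The second set gave 0.35. *Ovgp1*, an oviductal glycoprotein related to chitinases, had 11.6, 14.0 and 13.04 TPM in WT and 22.5, 18.1 and 18.5 TPM in cKO mice, a log2 fold change of 0.60 (adjusted p = 0.317) and 0.64 in the second set. *Sfn*, which encodes the p53 target 14-3-3 sigma, had 2.80, 3.04 and 2.65 TPM in WT and 4.81, 4.84 and 4.82 TPM in cKO mice. Its log2 fold change was 0.75 (adjusted p = 0.317) here and 0.77 in the second set. Of the 19 p53 targets tested *Sfn* alone had an unadjusted p under 0.05, and the median of that list was -0.01.

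**Figure D2:**
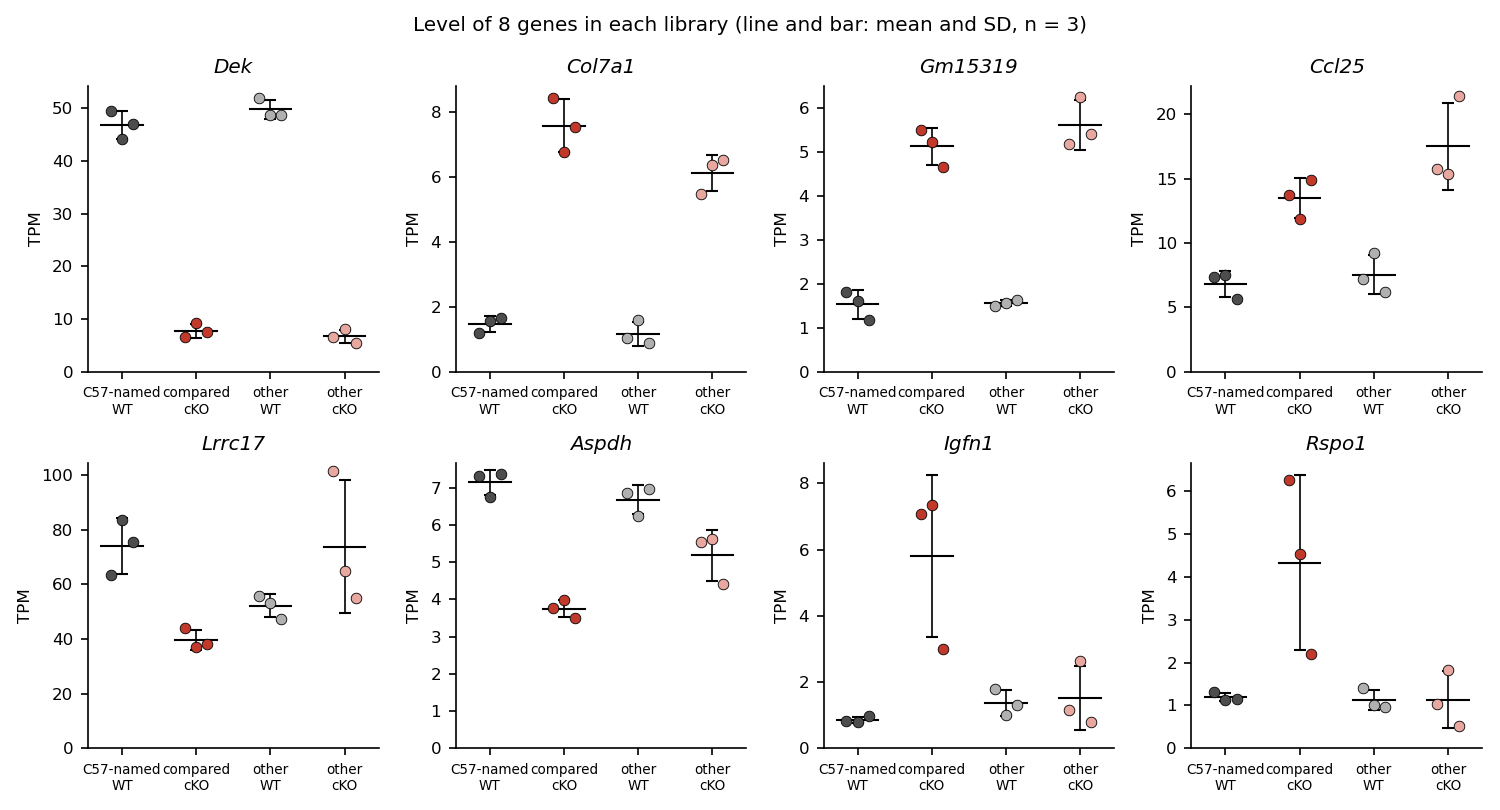
TPM of 8 genes in the 12 libraries, in 4 groups of 3 (WT and *Dek* cKO libraries of the C57-named comparison, then of the second set), with points for libraries and bars for mean and SD. *Dek*, *Col7a1*, *Gm15319* and *Ccl25* separate the genotypes in both sets, whereas *Igfn1* and *Rspo1* are highest, and *Lrrc17* lowest, in the 3 cKO libraries of the first.

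*Igfn1* and *Rspo1* had their highest values in the 3 cKO libraries of the comparison. *Igfn1*, an immunoglobulin and fibronectin domain protein of muscle, had 0.8302, 0.779 and 0.969 TPM in WT and 7.08, 7.34 and 2.98 TPM in cKO mice. The library labelled cKO male replicate 1 had the lowest of the cKO values, close to the 2.62 TPM of cKO male replicate 2 in the second set, whose other libraries had 1.78, 0.999 and 1.30 TPM (WT) and 1.16 and 0.808 TPM (cKO). The log2 fold change was 2.52 (SE 0.36, adjusted p = 0.143) here and 0.04 in the second set, a difference of 2.48 (interaction adjusted p = 0.661). *Rspo1*, a secreted activator of Wnt signalling, had 1.31, 1.14 and 1.15 TPM in WT and 6.27, 4.54 and 2.21 TPM in cKO mice, and in the second set 0.975 to 1.40 TPM in WT and 1.04, 1.84 and 0.522 TPM in cKO mice. Its log2 fold change was 1.66 (SE 0.37, adjusted p = 0.346) here and -0.13 in the second set, a difference of 1.78 (interaction adjusted p = 0.661). For neither gene did the difference between the sets pass adjustment, and for both cKO female replicates 1 and 2 were highest.

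*Rspo1* is also on a list of cortical genes, 12 of which were tested. Of these 6 were higher and 0 lower at an unadjusted p under 0.05, against 6.37% and 2.41% of all genes. Their median log2 fold change was 0.49 (0.48 without WT female replicate 1, when 3 were higher), against 0.03 over all genes tested. *Tbr1*, a transcription factor of cortical projection neurons, had 25.0, 29.1 and 26.3 TPM in WT and 52.1, 41.3 and 29.1 TPM in cKO mice. *Lamp5*, a marker of superficial cortex, had 34.2, 33.7 and 32.1 TPM in WT and 72.8, 55.9 and 35.3 TPM in cKO mice, and the cardiac and embryonic myosin light chain *Myl4* stood at 0.88 on the log2 scale (adjusted p = 0.443). The summed level of the list was 175.1 to 195.6 TPM in WT, 285.8 and 254.4 TPM in cKO female replicates 1 and 2, and 197.3 TPM in the library labelled cKO male replicate 1. In the second set it was 190.6 to 194.7 TPM in WT and 157.5 to 172.8 TPM in cKO mice, and the median there was -0.16. The part of adjoining cortex in *Igfn1*, *Rspo1* and the other genes highest in cKO female replicates 1 and 2 was not tested.

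Thalamic and habenular genes leaned to higher values as well. Of 11 tested, 5 had higher values at an unadjusted p under 0.05 and 0 lower, beside 6.37% and 2.41% of all genes, with a median of 0.54 (0.61 without WT female replicate 1) and 0.15 in the second set. *Lef1*, a transcription factor of the Wnt pathway, had 2.24, 2.72 and 2.63 TPM in WT and 4.76, 3.91 and 4.17 TPM in cKO mice (log2 fold change 0.74, adjusted p = 0.346). *Tnnt1*, a slow-muscle troponin found in thalamus, had 6.49, 1.64 and 2.90 TPM in WT and 11.3, 9.46 and 5.66 TPM in cKO mice, so the groups overlapped. *Slc17a6*, the vesicular glutamate transporter of subcortical neurons, had 9.32, 11.5 and 6.26 TPM in WT and 17.9, 14.6 and 10.3 TPM in cKO mice, also with overlap. The summed level of the list was 116.6 to 132.1 TPM in WT and 128.1 to 139.9 TPM in cKO mice, ranges that overlapped. In the second set the log2 fold changes of *Lef1*, *Tnnt1* and *Slc17a6* were -0.07, 0.20 and -0.54.

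Other lists of tissue bordering on the hippocampus varied widely between mice, and their part in the results was not tested. *Ttr*, the transthyretin gene of the choroid plexus, had 1590, 81.6 and 53.2 TPM in WT and 37.5, 3308 and 4289 TPM in cKO mice. Summed choroid plexus genes ran from 192.4 to 2054 TPM in WT and from 143.5 to 5315 TPM in cKO mice. The list median was 1.10 with 0 of 12 genes at an unadjusted p under 0.05, 1.77 without WT female replicate 1 and -0.81 in the second set. Of the 6 ependymal genes, *Ccdc153* had 7.30, 7.19 and 6.93 TPM in WT and 1.37, 5.20 and 4.15 TPM in cKO mice (log2 fold change -1.17, adjusted p = 0.548), and the list median was -0.90, against -0.57 without WT female replicate 1 and 0.05 in the second set. Blood genes had a median of -0.42, and 0.33 in the second set, the other direction. In the comparison 4 of 5 were lower at an unadjusted p under 0.05, beside 2.41% of all genes, and 1 of 5 without WT female replicate 1. *Alas2*, the erythroid enzyme of heme synthesis, had 4.68, 3.86 and 5.63 TPM in WT and 2.04, 3.42 and 2.75 TPM in cKO mice. Meningeal genes had a median of -0.21, -0.65 without WT female replicate 1 and -0.15 in the second set.

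**Figure D3:**
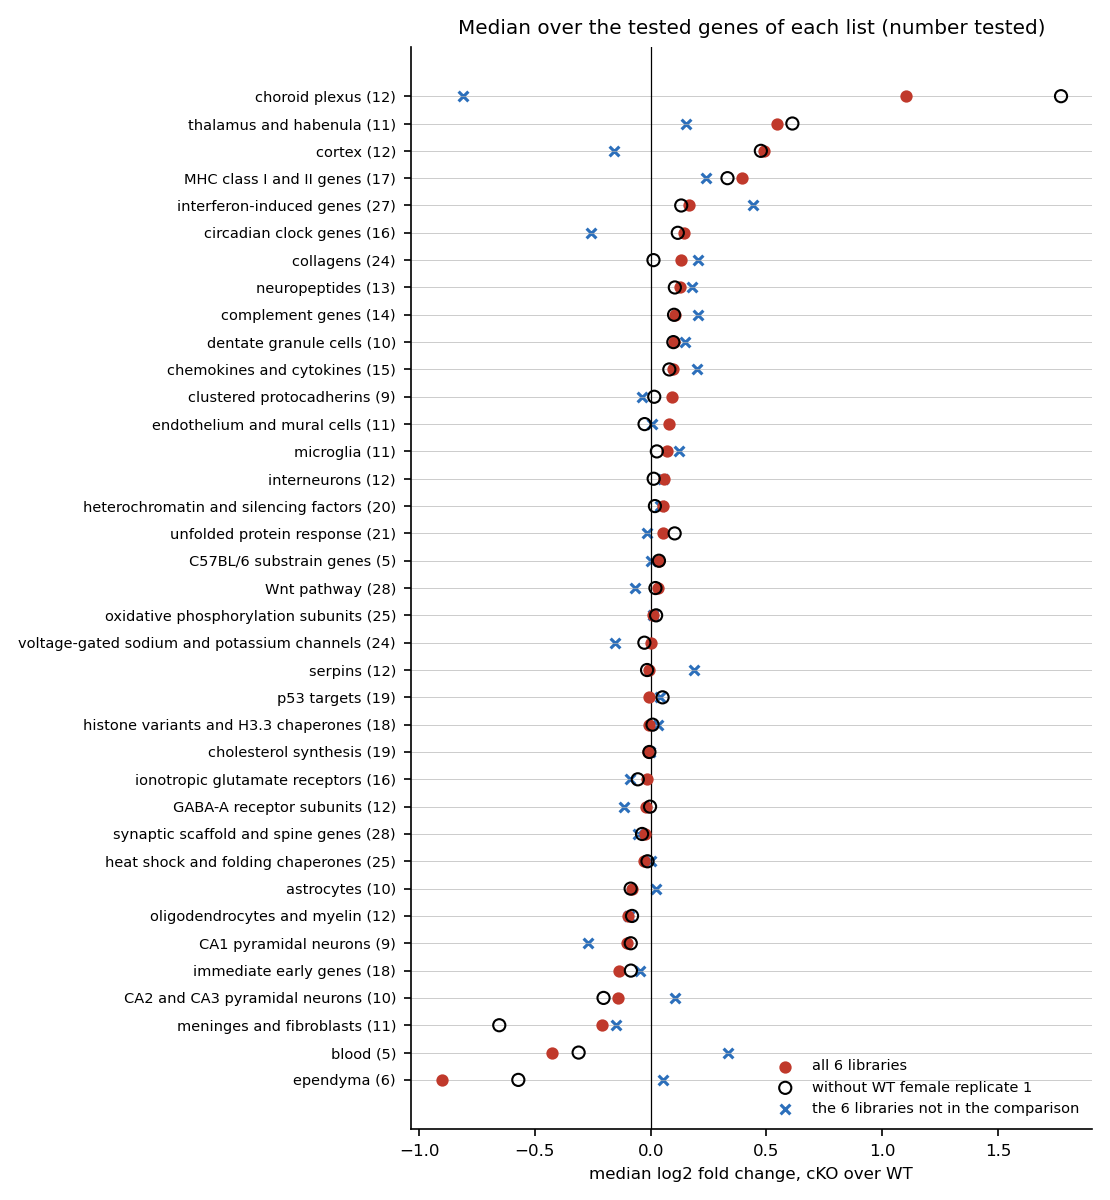
Median log2 fold change of each gene list (*Dek* cKO over WT) in the C57-named comparison, the same without WT female replicate 1, and in the second set. Cortex and thalamus lists lie at 0.49 and 0.54 and the MHC list at 0.39 in the comparison, against -0.16, 0.15 and 0.24 in the second set.

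Antigen presentation genes leaned to higher values. Of the 17 MHC class I and II genes tested, 16 had positive log2 fold changes (58.26% of all genes did), 7 were higher and 0 lower at an unadjusted p under 0.05 (6.37% and 2.41% of all genes), and none was called after adjustment. Their median was 0.39, and 0.33 without WT female replicate 1, when 5 were higher. *H2-D1*, a classical class I heavy chain, had 28.6, 34.3 and 33.1 TPM in WT and 40.3, 41.8 and 40.4 TPM in cKO mice (log2 fold change 0.35, adjusted p = 0.346). *H2-K1*, the other classical class I gene of C57BL/6 mice, had 24.3, 27.6 and 26.2 TPM in WT and 29.7, 40.3 and 34.6 TPM in cKO mice (0.41, adjusted p = 0.481). The nonclassical gene *H2-Q7* had 1.62, 1.73 and 2.30 TPM in WT and 3.74, 4.66 and 3.72 TPM in cKO mice (1.07, adjusted p = 0.317), and *H2-T23*, the Qa-1 gene, had a log2 fold change of 0.57. These 4 genes were named for the smallest p on the list. In none of them did the genotypes overlap, and 13.6% of all genes tested were without overlap. In the second set *H2-K1* alone of the 4 was without overlap. Log2 fold changes there were 0.24 for *H2-D1*, 0.25 for *H2-K1*, 0.31 for *H2-Q7* and 0.16 for *H2-T23*. Class I genes are so alike in sequence that reads may be split among them, which makes the value of each uncertain. The list median was 0.24 in the second set.

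Other immune lists differed less in the comparison. *Igtp*, an interferon-induced GTPase, had 3.03, 2.62 and 3.47 TPM in WT and 4.67, 5.67 and 4.50 TPM in cKO mice (log2 fold change 0.69, adjusted p = 0.41). *Isg15*, an interferon-induced ubiquitin-like protein, had 4.63, 5.48 and 5.73 TPM in WT and 6.26, 6.67 and 6.74 TPM in cKO mice (0.31, adjusted p = 0.559). Of 27 interferon-induced genes tested these were the 2 with an unadjusted p under 0.05, a share near the 6.37% of all genes, and 1 was left without WT female replicate 1. Of the 27, 23 were positive, beside 58.26% of all genes, with a median of 0.17. Among 14 complement genes 2 were higher, *C4b*, with 49.9, 50.5 and 55.1 TPM in WT and 63.8, 72.4 and 58.5 TPM in cKO mice, and *C1ra*, whose log2 fold change was 0.59. The median was 0.10. Microglial genes had 0 of 11 at that threshold and a median of 0.07. In the second set the medians of the interferon-induced, complement and microglial lists were 0.44, 0.21 and 0.12, beside 0.24 for the MHC list. Log2 fold changes there were 0.73 for *Igtp*, 0.59 for *Isg15*, 0.58 for *C4b* and 0.17 for *C1ra*.

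The lower genes were fewer, and *Dek* was the 1 called. *Aspdh*, an aspartate dehydrogenase domain gene, had 7.30, 6.76 and 7.37 TPM in WT and 3.77, 3.97 and 3.51 TPM in cKO mice, and the log2 fold change was -0.91 (SE 0.11, adjusted p = 0.109). Its values did not overlap in the second set either (-0.36, adjusted p = 0.868), and the effects differed by -0.55 (interaction adjusted p = 0.661). *Lrrc17*, a secreted leucine-rich repeat protein, had 63.4, 83.6 and 75.4 TPM in WT and 44.0, 37.2 and 38.2 TPM in cKO mice. The log2 fold change was -0.89 (SE 0.11, adjusted p = 0.109), and -0.999 without WT female replicate 1 (adjusted p = 0.0511). In the second set the direction was the other way, with 47.4 to 55.8 TPM in WT and 101, 64.8 and 55.1 TPM in cKO mice (0.45, interaction adjusted p = 0.661).

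*Aldh1a1*, a retinaldehyde dehydrogenase that makes retinoic acid, had 9.04, 7.15 and 5.603 TPM in WT and 2.41, 1.59 and 3.38 TPM in cKO mice, and the log2 fold change was -1.56 (SE 0.29, adjusted p = 0.317). The groups did not overlap, but in the second set the log2 fold change was -0.16. *Orc1*, the largest subunit of the origin recognition complex, had 5.03, 7.51 and 6.199 TPM in WT and 2.40, 1.96 and 3.89 TPM in cKO mice (-1.20, adjusted p = 0.354). The log2 fold change of *Orc1* was 0.88 in the second set, and the effects differed by -2.08 (interaction adjusted p = 0.631). *Ccdc36* and *Tmem267* had log2 fold changes of -1.25 and -0.86 here and 0.35 and 0.61 in the second set. The histone H3 gene *Hist2h3b* had -1.14 and *Cnpy2*, a saposin-like protein of the secretory pathway, -0.59. *Gm17402*, *Gm13092* and *Gm12854* had -1.07, -1.10 and -0.87. In the second set the values were -1.08 and -0.01, and then -0.77, -4.57 and 0.23, in the same order. Some cKO values of *Gm13092* there were at or near 0 TPM.

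**Figure D4:**
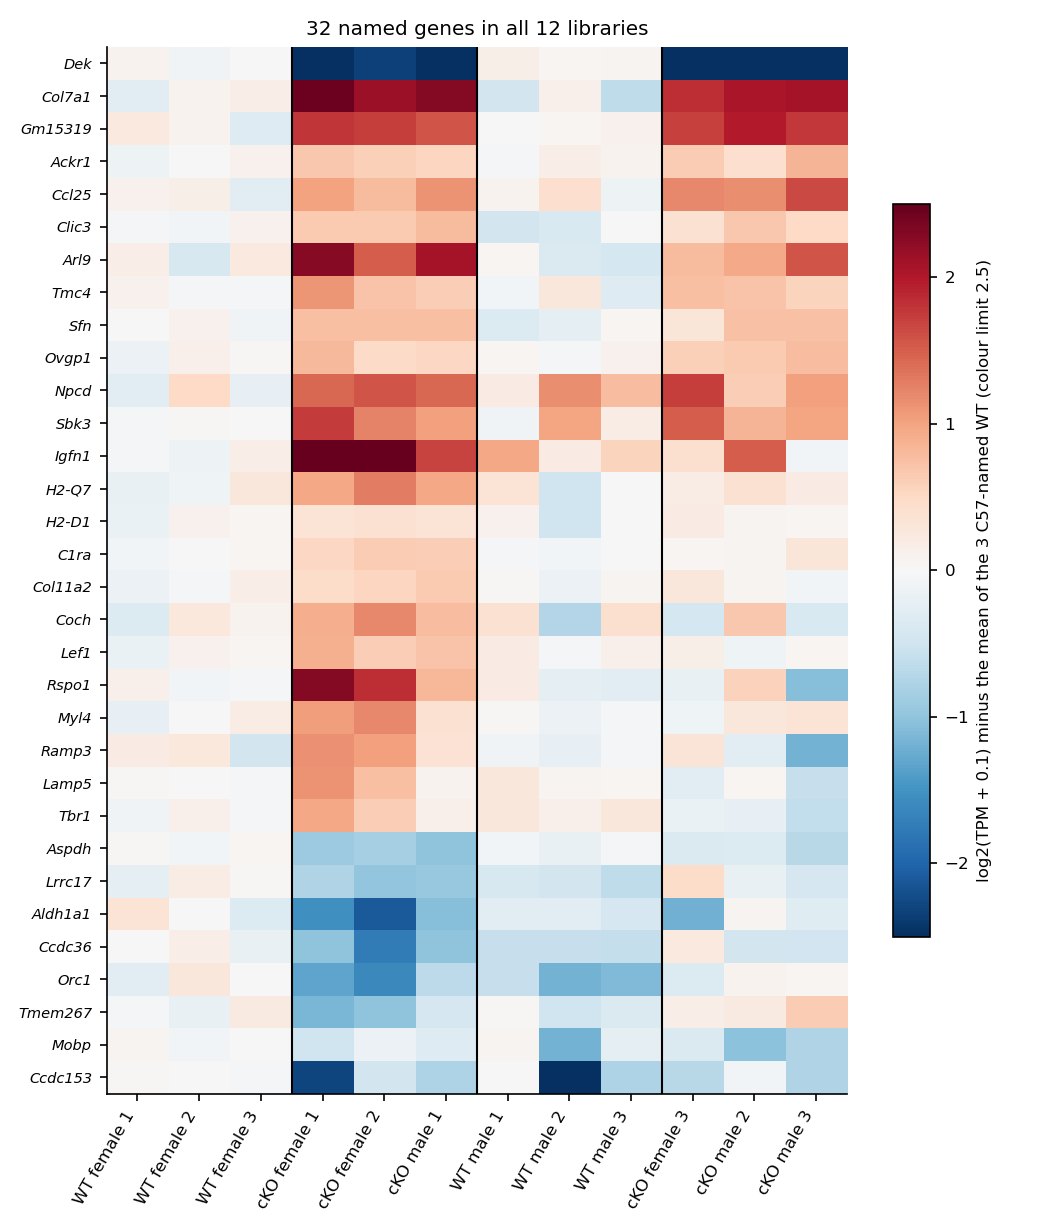
Log2 values of 32 named genes in the 12 libraries, each minus the mean of the 3 C57-named WT libraries, with colours limited to 2.5 in either direction. Genes that separate the genotypes in all 12 libraries, such as *Col7a1* and *Gm15319*, stand beside genes whose values lie apart in the 3 cKO libraries of the comparison, such as *Igfn1* and *Rspo1*.

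Genes of synaptic transmission differed by small amounts. *Grik2*, a kainate receptor subunit, had 11.2, 11.8 and 9.33 TPM in WT and 7.85, 7.73 and 7.18 TPM in cKO mice, a log2 fold change of -0.49 (adjusted p = 0.354). *Gria1*, an AMPA receptor subunit, had 363, 373 and 380.2 TPM in WT and 273, 300.1 and 365 TPM in cKO mice, with overlap (-0.26, adjusted p = 0.552). In the second set the log2 fold changes of *Grik2* and *Gria1* were -0.10 and 0.07. These were the 2 lower genes at an unadjusted p under 0.05 among 16 ionotropic glutamate receptor genes, whose median was -0.01. Among GABA-A receptor subunits *Gabra5* had -0.28 and *Gabrb1* -0.18, with adjusted p of 0.476 and 0.56, and the list median was -0.02. Among 28 synaptic scaffold and spine genes 1 was lower and the median was -0.02. *Rhoa* encodes an actin-regulating GTPase. The study lists it among the genes upregulated in both sexes, and reports higher qRT-PCR levels in cKO mice of each sex. No such rise was seen in the TPM of the comparison. *Rhoa* had 111, 106 and 105 TPM in WT and 102, 105 and 111 TPM in cKO mice, fully overlapping. The log2 fold change was -0.02 (95% interval -0.14 to 0.10). Without WT female replicate 1 it was 0.01, and in the second set 0.05.

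Activity and neuron-type genes completed the description of the tissue. *Nr4a3*, an orphan nuclear receptor induced by activity, had 34.8, 38.9 and 36.3 TPM in WT and 22.2, 24.5 and 30.9 TPM in cKO mice (-0.51, adjusted p = 0.387). It was the single gene of 18 immediate early genes past an unadjusted p of 0.05, and the list median was -0.14. In CA2 and CA3 genes, *Coch* was higher (0.96) and *Amigo2*, a CA2 adhesion molecule, lower (-0.54), with adjusted p of 0.317 and 0.406. *Coch* had -0.06 in the second set. *Lypd1*, on the CA1 list, had -0.27 (adjusted p = 0.476). Myelin genes *Mobp* and *Mbp* had -0.32 and -0.24 (adjusted p = 0.484 and 0.538), and the other 10 genes of that list had no p under 0.05. *Cartpt*, a neuropeptide precursor, had 0.352, 0.740 and 0.501 TPM in WT and 1.45, 2.29 and 1.51 TPM in cKO mice (1.57, adjusted p = 0.456). For *Nr4a3*, *Amigo2* and *Cartpt* the 3 C57-named WT libraries lay apart from the other 9 libraries. WT mice of the second set were thus on the side of the cKO mice. In that set the log2 fold changes of these genes were -0.29, -0.155 and 0.71. The part of the name prefix in them was not tested.

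Chromatin and clock genes gave small differences. Of 20 heterochromatin and silencing factors 3 were higher at an unadjusted p under 0.05, beside 6.37% of all genes, and 1 without WT female replicate 1, with medians of 0.05 and 0.02. Among the 3, *Setdb1*, a histone H3 lysine 9 methyltransferase, had 21.8, 21.1 and 21.8 TPM in WT and 24.4, 24.2 and 23.96 TPM in cKO mice (0.17, adjusted p = 0.537), and *Dnmt3a*, a DNA methyltransferase, had 0.24. Of 18 genes for histone variants and H3.3 chaperones 0 passed, with a median of -0.01. Circadian genes had 6 of 16 higher at an unadjusted p under 0.05, beside 6.37% of all genes, and 0 of 16 without WT female replicate 1. Their medians were 0.14 and 0.12, so the median changed little while the count fell. *Hlf* and *Dbp*, clock-controlled PAR bZIP factors, had log2 fold changes of 0.39 and 0.31 here and of -0.90 and -0.88 in the second set. In that set *Dbp* had 8.71 TPM in cKO male replicate 3, against 37.4 to 47.2 TPM in its 5 companions. Heat shock and folding genes had 0 of 25 and unfolded protein response genes 0 of 21 at that threshold, with medians of -0.03 and 0.05.

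Genes that the study names for both sexes or measured by qRT-PCR follow. *Npcd* had 2.30, 4.02 and 2.46 TPM in WT and 7.87, 8.66 and 7.84 TPM in cKO mice (log2 fold change 1.48, adjusted p = 0.143), and 0.41 in the second set. Its model overlaps *Nptxr* and *Cbx6* on the same strand, so its value is uncertain. *Sbk3*, a predicted kinase, had 1.06, 1.12 and 1.07 TPM in WT and 3.88, 2.71 and 2.31 TPM in cKO mice (1.34, adjusted p = 0.317), and *Tnfrsf23*, a decoy receptor of the TNF receptor family, stood at 1.06 on the log2 scale (adjusted p = 0.537). In the second set *Sbk3* and *Tnfrsf23* had 0.75 and 0.64. The study lists *Palmd* and *Mthfsd* among the genes upregulated in both sexes. Here *Palmd*, a paralemmin-like protein, was lower (-0.42, adjusted p = 0.346, and -0.12 in the second set). All its cKO values in the series lay below all its WT values, by as little as 18.5 against 18.53 TPM. *Mthfsd* had 0.09 (adjusted p = 0.673), and 0.12 in the second set. *Rgs6* was under the filter, and *Pcdhga11* and *Galnt2l* were not analysed here.

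The 6 other libraries share no library with the comparison, so the direction of its nominal genes could be read in them. Of the 301 nominal genes, 179 had the same direction there, or 59.47% (95% Wilson interval 53.84% to 64.86%, which takes genes as independent, and they are not). Over all 14208 genes the share was 48.59%. The nominal share was 56.51% without WT female replicate 1 and 61.79% without cKO male replicate 3 of the second set, described below. Of the 238 higher genes 62.18% and of the 63 lower genes 49.21% kept their direction, and the median log2 fold changes in the second set were 0.15 and 0.02. The nominal list of the second set held 236 genes, or 1.66% of those tested. Both lists shared 46 genes of the same direction, 15.28% of the first and 19.49% of the second, and 8 genes of opposite direction. Across all genes tested the fold changes of the sets had a Pearson r of -0.01, a description over genes that are not independent.

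**Figure D5:**
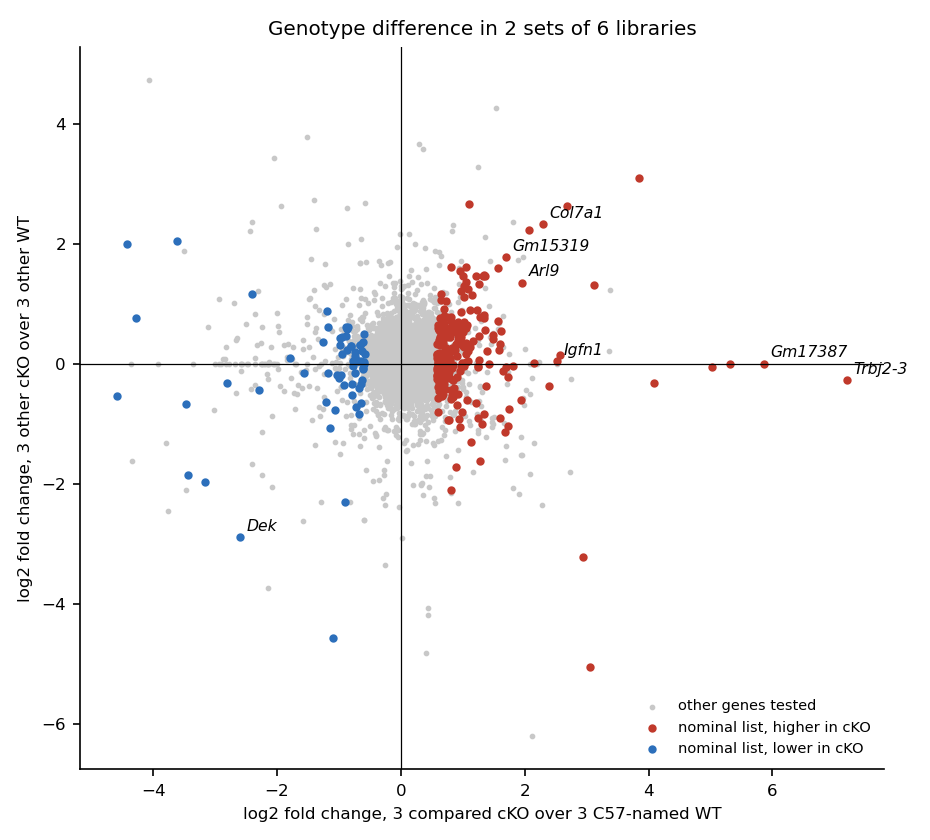
Log2 fold change (*Dek* cKO over WT) of each tested gene in the C57-named comparison on the x axis and in the second set on the y axis, with nominal genes coloured. *Dek*, *Col7a1* and *Gm15319* have similar values on both axes, and *Igfn1* and *Gm17387* lie near 0 on the y axis.

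Among the 301 nominal genes, 41 had all 6 cKO values of the series on one side of all 6 WT values (39 higher and 2 lower), a pattern of 0.633% of all genes tested. The nominal genes were chosen on 6 of these 12 libraries, so nothing is read from their counts beside such shares. A further 46 had the 3 cKO libraries of the comparison apart from the other 9 libraries (42 higher and 4 lower), which was so for 2.17% of all genes. In 15 the 3 C57-named WT libraries lay apart from the other 9, beside 0.823% of all genes. Between the sets the effect of genotype differed at an adjusted p under 0.05 for 1 of 14160 genes, or 0.00706%, and at an unadjusted p under 0.05 for 991, or 7%. cKO male replicate 3 of the second set had 50 protein-coding genes at 1 TPM or more and at least 4 times the highest other library, among them *Hspb1* with 79.2 TPM and *Timp1* with 39.2 TPM, against at most 13.1 and 3.73 TPM elsewhere. Without it the interaction was called for 2 genes.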

How the data were processed

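Poly-A selected RNA of hippocampus was sequenced, and the authors deposited 1 table of TPM with a column for each library. The study's methods name STAR with GRCm38 for mapping and Salmon for quantification, whereas the submitters' processing notes name kallisto and mm10, and which of them gave the TPM is not stated. TPM keep no counts, so the DESeq2 test of the methods was not used, and depth per gene is unknown. Columns were matched to samples by name, and groups follow the labels, except that the library labelled cKO male replicate 1 was compared with the female WT mice. Nothing in the labels states that libraries come from separate litters or extraction days, and p-values measure the spread between these mice.

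Of 26409 genes, 25262 matched GENCODE M21 by Ensembl ID and 1147 did not. Genes averaging 1 TPM or more across the 6 libraries were tested on log2(TPM + 0.1) with limma 3.58.1 in R 4.3.3 (moderated, trended prior variance, two-sided) and adjusted by the Benjamini-Hochberg method. The interaction used 4 groups of 3 on all 12 libraries. Gene lists are described by counts and medians. The members and lists were chosen with earlier results of these data known. Named genes are *Dek*, called genes, the 12 of smallest p per direction among nominal genes without overlap, genes the study measured by qRT-PCR or names for both sexes, up to 4 of smallest p per list, genes farthest out in WT female replicate 1 and genes of the interaction. Further genes, such as those with a signal in a single library, were named with their values already known. Results for some genes are not reported here.

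Alternatives were each library left out, 0.5 or 1 TPM added, a minimum of 0.1 TPM or none, median ratio or quantile scaling, no trend, array weights, a fit on all 12 libraries, labelled sexes and a replicate block. Protein-coding genes only and leaving out cKO male replicate 3 were chosen after seeing the data. Simulated data held 14208 genes in 3 against 3 libraries, 200 of the genes changed. Of these, limma found 78.5% at a log2 change of 1 (11 false calls) and 93% at a change of 2 (9 false calls). The simulated noise was normal and independent between genes, and no simulated library stood apart. These shares therefore need not hold for the real libraries. Tables and figures used Python 3.11.15, numpy 2.4.6, pandas 2.3.3 and scipy 1.17.1.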

Additional observations from a re-analysis of the deposited data

Results flagged for a closer look

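The effect of genotype on *Gm16053* differed between the C57-named comparison and the second set by 5.22 on the log2 scale (standard error 0.57, limma interaction adjusted p = 0.0203), the 1 gene past that test. It had 4.77, 2.92 and 2.86 TPM in the WT and 2.89, 7.11 and 4.54 TPM in the *Dek* cKO libraries of the comparison. In the second set it had 2.69, 4.44 and 1.67 TPM in WT mice and is listed at 0 in all 3 cKO libraries, so the size of the difference depends on the 0.1 TPM added before the log2 transform. Within the comparison its groups overlapped (log2 fold change 0.40, adjusted p = 0.779).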

How the results depend on the processing

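Leaving out single libraries gave 1 to 11 called genes (3 without WT female replicate 2, 2 without WT female replicate 3, 2 without cKO female replicate 1, 1 without cKO female replicate 2 and 11 without the library labelled cKO male replicate 1), 163 to 330 higher and 58 to 102 lower nominal genes, and 0 to 7 genes in the interaction (0 without WT female replicate 3 or cKO female replicate 2, and 7 without the library labelled cKO male replicate 1). *Dek* was called in each of these fits. Calls numbered 2 with the 3 libraries labelled cKO female and 3 among protein-coding genes only. A pseudocount of 1 TPM left 153 higher nominal genes, a minimum of 0.1 TPM gave 433 higher and 136 lower, and no filter 469 and 153. The interaction was called for 3 genes with a minimum of 0.1 TPM, 2 with a prior variance without trend, 2 without cKO male replicate 3 and 0 with the sexes as labelled.

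Deviations from the genotype mean correlated at -0.06 and 0.02 between same-numbered female libraries, and at 0.04 and 0.02 between differently numbered ones. So few values cannot show whether libraries share a litter or an extraction day. In a fit with replicate numbers as a block, WT female replicate 3 and the library labelled cKO male replicate 1 had no partner. Genotype was thus estimated from female replicates 1 and 2 of each genotype alone, with little left to measure spread. Limma called 0 genes there (1260 at an unadjusted p under 0.05, 297 higher and 139 lower nominal genes). *Dek* then had a log2 fold change of -2.57 and an adjusted p of 0.454. The log2 fold change of *Rhoa* ran from -0.0495 to 0.00657 when single libraries were left out, positive without WT female replicate 1 (0.00609) or cKO female replicate 1. *Ttr* reversed to -0.0322 under the block and *Gm16053* to -1.445 with the 3 libraries labelled cKO female. Among the repeated values of 72 genes, 32 lost a call, all of them values of the 5 called genes, 7 gained one and 4 reversed. Of 608 list medians, 574 moved by less than the spread between libraries. Causes were not tested.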

Other observations

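Lists not described above showed few differences. Of 28 Wnt pathway genes 4 were higher and 0 lower at an unadjusted p under 0.05, and all 4 are either cortical or thalamic genes of the lists above or *Dkk3*. The median was 0.03, and it fell to or below 0 after median ratio or quantile scaling. Of 24 collagens 4 were higher and 1 lower, *Col7a1* being the 1 that was called. Another, *Col11a2*, had a log2 fold change of 0.55 (limma adjusted p = 0.317) and 0.11 in the second set. Of 24 sodium and potassium channel genes 3 were higher and 2 lower, of 19 cholesterol synthesis genes 2 were higher, and of 25 oxidative phosphorylation genes 1 was higher and 1 lower, with medians of 0.00, -0.01 and 0.01. Among 12 interneuron genes 2 were lower and among 10 astrocyte genes 1 was higher and 1 lower. Of 15 chemokine and cytokine genes 3 were higher, *Ackr1* and *Ccl25* among them, with a median of 0.10. Clustered protocadherins had 1 of 9 higher and serpins 0 of 12. Over all genes 6.37% were higher and 2.41% lower at this threshold. Without WT female replicate 1 the channel genes had 1 higher and 1 lower, the collagens 3 and 2, the Wnt genes 4 and 2, the interneuron genes 2 and 1, the astrocyte genes 1 and 0, the chemokine and cytokine genes 2 and 1, cholesterol synthesis 1 and 0, and the protocadherins and oxidative phosphorylation genes 0.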
